A study of Mus musculus with 24 samples.

Results

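Lacrimal gland stem cell (LGSC) spheres of passage 2, collected at day 7 of culture, were compared with whole embryonic lacrimal gland (LG) at E17.5, late in gestation. The comparison rested on 6 of the 21 libraries used from the 24 samples listed for the study, 3 of LGSC spheres and 3 of E17.5 LG, and on the 17391 genes whose FPKM averaged 0.5 or more across these libraries, out of 63862 rows in each table. FPKM counts the fragments of a gene relative to its length and to the fragments in the library. All mice were C57BL/6. LGSCs had been grown from enzymatically dissociated LGs of mice aged 6 to 8 weeks, embedded in Matrigel, a basement membrane extract, and fed a serum-free medium with N2 and B27 supplements, epidermal growth factor (EGF), FGF10, Wnt3A and the inhibitor Y-27632. E17.5 LG was intact tissue that had not been cultured. The groups therefore differed in developmental stage, in culture and in cell composition together, and these cannot be told apart here. The labels do not say how many animals stand behind a library, and p-values measure only the spread between these libraries, which may be partly technical.

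The lacrimal gland makes the watery layer of the tear film. In the mouse embryo an epithelial bud grows from the conjunctiva into mesenchyme, and mesenchymal FGF10 acting on epithelial FGF receptors drives its branching. The whole gland at this stage holds branching epithelium, mesenchyme, blood vessels, nerves and blood cells. A sphere culture from dissociated gland is meant to enrich epithelial progenitors, which lie among duct and myoepithelial cells that carry basal keratins. The question put to the data was how such cultured progenitors differ from the proliferating whole gland.

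Recovered reads numbered 7646408 to 7834010 in the LGSC libraries and 7559260 to 9258020 in the E17.5 libraries. An exact 0 in these tables was not evidence that a gene is off. Of 5338 genes at 10 FPKM or more in the separately made table of passage 10 LGSC spheres, 577 (10.8%) had 0 in every one of the 20 libraries of passage 2 spheres and tissue, among them Epcam and Krt8, both marks of glandular epithelium, and the proliferation marker Mki67. The housekeeping gene Gapdh was listed at 0 in the same 20 libraries. Values near 0 carry a like doubt. Krt14 and Krt5 were at 7065 and 4931 FPKM in the passage 10 table, but at most 17.8 and 2.16 FPKM in the day 7 libraries of passage 2. Nothing is read below from genes listed at 0 in all 6 libraries, and a low value in both groups is not read as low expression. The 3 values quoted for a group are those of replicates 1, 2 and 3 in that order.

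LGSC replicate 2 stood apart from the other two LGSC libraries. The correlation of log2(FPKM + 1) across the tested genes was 0.973 between LGSC replicates 1 and 3, but 0.935 and 0.942 between them and replicate 2, against 0.973 to 0.979 within E17.5 LG and 0.766 to 0.787 between groups. In replicate 2, 195 genes lay more than 2 log2 units above both other LGSC libraries and 57 lay as far below, where the other 5 libraries had 16 to 27 genes above and 7 to 19 below. The suprabasal keratin Krt1 was at 0, 467 and 0.228 FPKM, the keratinocyte differentiation gene Krtdap at 3.02, 873 and 5.43 FPKM, and the insulin-like growth factor carrier Igfbp2 at 2.69, 1431 and 1.57 FPKM. The simple-epithelial keratin Krt18 was at 689, 130.1 and 1195 FPKM, the tight junction gene Cldn3 at 261, 45.5 and 441 FPKM, and the secreted protease inhibitor gene Wfdc18 at 624, 11.3 and 253 FPKM. Replicate 2 was thus high in Krt1, Krtdap and Igfbp2 and low in Krt18, Cldn3 and Wfdc18, all 6 picked after their values were seen. Epithelial genes as a whole were not low there: the summed epithelial identity list described below was at 4057, 4896 and 4734 FPKM. None of these 6 genes passed the test between LGSC spheres and E17.5 LG (adjusted p = 0.575, 0.708, 0.247, 0.303, 0.934 and 0.715), and the counts that follow are given without replicate 2 where it changed them by over 1.5 times.

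**Figure D1:**
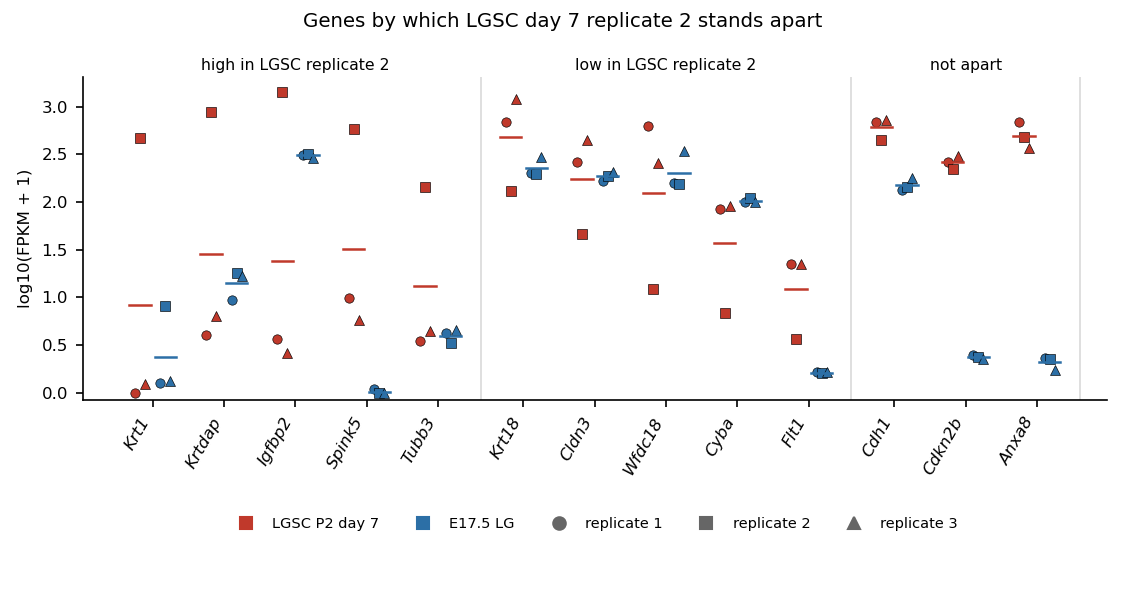
Log10(FPKM + 1) of 13 genes in each of the 6 libraries, red for LGSC spheres at day 7 and blue for E17.5 LG, with the replicate as the marker shape and a line at the mean of the 3 values. LGSC replicate 2 lies far from replicates 1 and 3 for the first 10 genes, and near them for Cdh1, Cdkn2b and Anxa8.

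Limma called 8286 of the 17391 genes past an adjusted p of 0.05 (47.6%), of which 3145 were higher in LGSC spheres (18.1% of genes tested) and 5141 were lower (29.6%). List counts below are to be read beside these shares. The median log2 fold change over all genes tested was -0.10. Of the genes tested, 650 were at 0 in the 3 LGSC libraries and 165 in the 3 E17.5 libraries. A gene at or near 0 in 1 group passed the filter through the other group alone. Its direction was thus fixed, and its adjusted p is not read as support for that direction. All log2 fold changes are LGSC minus E17.5 on the log2(FPKM + 1) scale, which shrinks the fold change of weakly expressed genes. A bare number in parentheses after a gene is its log2 fold change. The large differences were mostly falls: 471 genes fell by more than 3 log2 units and 109 rose by as much. Against a log2 fold change of 1 in either direction, 1816 genes passed (10.4%), 383 higher and 1433 lower. Without LGSC replicate 2, 9116 genes passed, and all 7783 genes called in both fits kept their direction.

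The 10 largest rises were genes of stratified and stressed epithelium, secreted factors and a cell cycle inhibitor. Anxa8, which encodes an annexin of squamous epithelia, was at 685, 473 and 364 FPKM in LGSC spheres and 1.30, 1.27 and 0.731 FPKM in E17.5 LG, a log2 fold change of 7.88 with a standard error (SE) of 0.25 (adjusted p = 4.53e-06). Krt17, a keratin of basal and wounded epithelium, was at 2519, 4123 and 3018 FPKM in LGSC spheres and 15.5, 16.7 and 15.9 FPKM in E17.5 LG (log2 fold change 7.54, SE 0.18). The desmosome gene Pkp1 was at 452, 921 and 571 FPKM in LGSC spheres and 3.30, 3.61 and 4.83 FPKM in E17.5 LG (log2 fold change 6.99, SE 0.27). For all 3 genes the lowest LGSC library stood far above the highest E17.5 library. Groups that did not overlap were common, at 59.6% of all genes tested. The glycerol and water channel gene Aqp3 was at 304, 1910.5 and 153 FPKM in LGSC spheres, with replicate 2 highest, and below 2 FPKM in every E17.5 library (log2 fold change 7.60, and 6.55 without replicate 2). The secreted protease inhibitor Slpi (7.00), the cyclin-dependent kinase inhibitor Cdkn2b (6.79), the neutrophil chemokine Cxcl5 (6.68), the proliferin Prl2c3 (6.53), Dynap and the secreted phosphoprotein Spp1 (6.41) made up the rest of the 10. Prl2c3 belongs to a family of near-identical proliferin genes, so reads may be split among its copies.

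The 10 largest falls were genes of mesenchymal matrix, imprinted growth genes, mast cell proteases and a hormone receptor. Col3a1, a fibrillar collagen, was listed at 0 in the 3 LGSC libraries and at 2239, 2116 and 1905 FPKM in E17.5 LG. Against a floor of 3 reads over the LGSC libraries together it was at least 178000-fold lower in LGSC spheres (adjusted p = 7.9e-08). Such bounds, here and below, hold only if a listed 0 is a true count. All 10 genes were at or near 0 in LGSC spheres and passed the filter through E17.5 LG alone, so they could only be lower. Col1a1, the major fibrillar collagen, was at 0.263, 0.643 and 0.561 FPKM in LGSC spheres and 2228, 1939 and 1867 FPKM in E17.5 LG (log2 fold change -10.40, SE 0.13). Col5a1 was at 0.0382, 0.407 and 0.0526 FPKM in LGSC spheres and 651, 573 and 509 FPKM in E17.5 LG (-8.96). These 3 collagen genes were abundant in the embryonic gland and under 1 FPKM in every LGSC library. The small proteoglycans Lum and Dcn were listed at 0 in the 3 LGSC libraries, and at 550.4, 543 and 538 FPKM and 419, 417 and 414 FPKM in E17.5 LG, at least 11500-fold and 21100-fold lower in LGSC spheres. The mast cell proteases Cma1 and Cpa3 were at 815, 886 and 982 FPKM and 692, 732 and 942 FPKM in E17.5 LG, and at most 0.302 FPKM in any LGSC library. Agtr2, the type 2 angiotensin receptor of fetal mesenchyme, was listed at 0 in the 3 LGSC libraries and at 651, 655 and 649.5 FPKM in E17.5 LG. The imprinted genes H19 and Igf2 completed the 10 and are described with their group below.

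**Figure D2:**
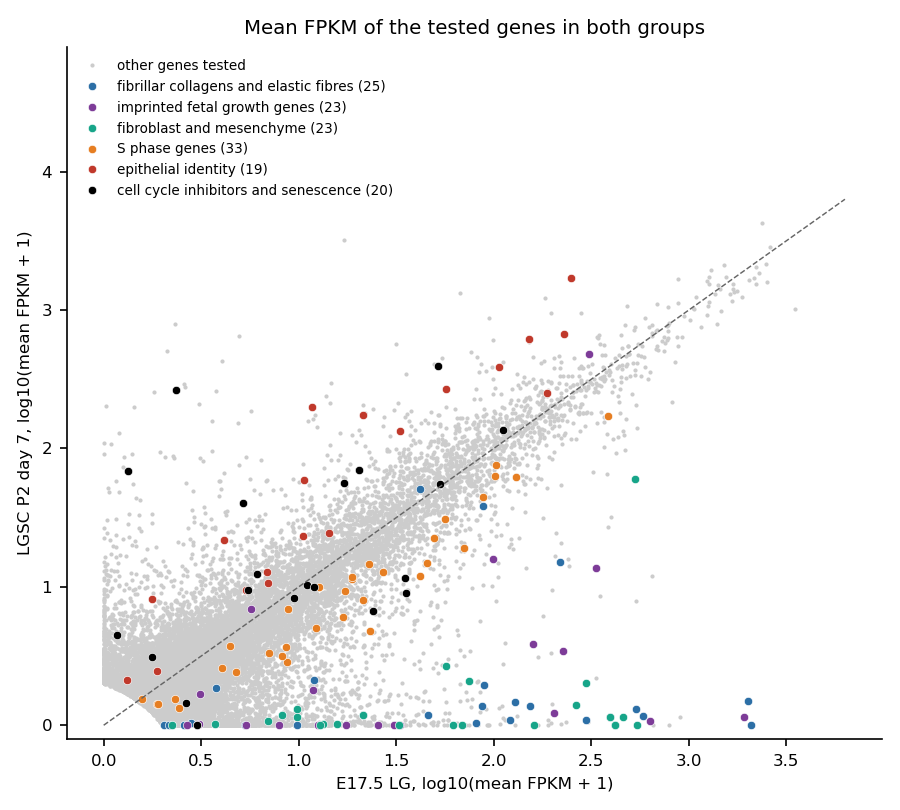
Mean FPKM in E17.5 LG (x axis) and in LGSC spheres at day 7 (y axis) for the 17391 genes tested, both as log10(mean FPKM + 1), with 6 gene lists in colour and their number of tested members in brackets; the dashed line marks equal means. Matrix, mesenchymal and imprinted genes lie along the bottom edge, near 0 in LGSC spheres, while most epithelial genes lie above the line and S phase genes a little below it.

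Epithelial genes that the tables measure were higher in the spheres, as their label has it. Of 35 epithelial identity genes, 8 were listed at 0 in all 6 libraries and 19 were tested. Of these, 13 were higher in LGSC spheres, none was lower and 6 did not pass, with a median log2 fold change of 1.84. Cdh1, encoding E-cadherin, was at 684, 445 and 719 FPKM in LGSC spheres and 132, 141 and 178 FPKM in E17.5 LG (log2 fold change 2.01, SE 0.21, adjusted p = 0.000553). The epithelial protease inhibitor Spint1 was at 194, 138 and 189 FPKM in LGSC spheres and 17.7, 22.9 and 20.7 FPKM in E17.5 LG (3.02). Both genes were higher in every LGSC library than in any E17.5 library, and replicate 2 was the lowest of the LGSC libraries for each. Desmosomal Perp (2.65), Pkp3 (2.39), the epithelial small GTPase Rab25 (2.17), Spint2 (1.86) and its target protease St14 (2.04) also rose. The summed FPKM of the list was 4057 to 4896 in LGSC spheres and 968 to 1308 in E17.5 LG. In bulk libraries a larger share of epithelial cells and more RNA of a gene per epithelial cell cannot be told apart.

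Among 22 basal and stem cell markers, 13 were tested, of which 7 were higher in LGSC spheres and 1, Dst, was lower (log2 fold change -0.35, a call lost when any library but LGSC replicate 2 was left out). The median was 1.03, or 1.42 with Krt5 at its floor. Beside Krt17, the basal transcription factor Bnc1 was at 16.04, 23.6 and 13.4 FPKM in LGSC spheres and 0.775, 0.625 and 0.592 FPKM in E17.5 LG (3.45). Pthlh, encoding parathyroid hormone-related protein, was at 64.6, 91.9 and 86.6 FPKM in LGSC spheres and 6.43, 6.54 and 3.24 FPKM in E17.5 LG (3.71). Krt14, the stem cell marker the study used, was at 6.51, 17.8 and 9.53 FPKM in LGSC spheres and 0.292, 0.590 and 0.498 FPKM in E17.5 LG (log2 fold change 2.97, adjusted p = 0.000706). Krt14 was thus higher in all 3 LGSC libraries, but its level was far below the 7065 FPKM in the passage 10 table. Krt5 was at 0.395, 2.16 and 0.510 FPKM in LGSC spheres and listed at 0 in E17.5 LG, and did not pass (adjusted p = 0.0557). Krt15, another basal keratin, had means of 19.3 FPKM in LGSC spheres and 50.4 FPKM in E17.5 LG and did not pass. Ngfr, also on the list, had means of 20.54 and 50.75 FPKM and did not pass in the limma test (log2 fold change -1.60, adjusted p = 0.0727). Of the other genes the study names, Trp63, Nes, Krt19 and Ltf had means under 0.5 FPKM in both groups, while Epcam, Mki67 and Aqp5 were listed at 0 in all 6 libraries.

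All 23 tested genes of the fibroblast and mesenchyme list were lower in LGSC spheres, with a median of -4.46, or -5.92 with the 7 genes listed at 0 in LGSC spheres set at their floor. Genes at or near 0 in LGSC spheres passed the filter through E17.5 LG alone, so they could only be lower. The same holds for such genes in the endothelial, leukocyte, erythroid, Schwann cell, fibrillar collagen and fetal growth lists below. It also holds for those in the contractile, transcription factor, FGF, Wnt and Notch lists. The counts of these lists are descriptions, and the levels carry the difference. The summed level of the 34 genes was 46.8 to 83.6 FPKM in LGSC spheres and 3039 to 3723 FPKM in E17.5 LG. Twist1, a transcription factor of mesenchyme, was at 0.265, 0.785 and 0.137 FPKM in LGSC spheres and 321, 293 and 177 FPKM in E17.5 LG. The cell surface proteoglycan Gpc3 was at 0.161, 0.0951 and 0.166 FPKM in LGSC spheres and 469.6, 478 and 428 FPKM in E17.5 LG, and the cadherin Cdh11 of mesenchymal cells at 0, 0 and 0.0251 FPKM in LGSC spheres and 69.8, 63.8 and 48.6 FPKM in E17.5 LG. Igfbp4 was the exception in level, not in direction, at 59.1, 42.3 and 76.03 FPKM in LGSC spheres and 603, 538 and 439 FPKM in E17.5 LG (-3.16), and made up most of what remained of the list in LGSC spheres.

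Of 15 endothelial genes tested, 14 were lower in LGSC spheres and Flt1 was higher (median -4.04, or -4.38 with 3 genes at their floor). The vessel cadherin Cdh5 was at 0, 0.0304 and 0 FPKM in LGSC spheres and 80.6, 79.1 and 60.4 FPKM in E17.5 LG, and the angiopoietin receptor Tek at 0.0229, 0.109 and 0.0237 FPKM in LGSC spheres and 47.98, 50.9 and 44.6 FPKM in E17.5 LG. Flt1, which encodes a receptor for vascular endothelial growth factor, was at 21.2, 2.61 and 21.1 FPKM in LGSC spheres and 0.647, 0.592 and 0.629 FPKM in E17.5 LG (log2 fold change 2.90, adjusted p = 0.0166). Its call was lost when any library but LGSC replicates 1 and 2 was left out. Kdr, whose protein the study used as an endothelial marker, had a mean of 0.0687 FPKM in E17.5 LG and was listed at 0 in LGSC spheres, too low to test. Beside the levels of Cdh5 and Tek in E17.5 LG, this value is not read as the expression of Kdr. The pericyte channel genes Abcc9 (-4.37) and Kcnj8 (-4.20) were lower as well. Of 8 pericyte genes tested 4 were lower, and Mcam, an adhesion gene that epithelial cells can also express, was higher (1.00). The summed pericyte list did not separate the groups, at 281 to 381 FPKM in LGSC spheres and 256 to 321 FPKM in E17.5 LG, and most of it in LGSC spheres was Mcam, at 339, 271 and 267 FPKM.

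Among 19 leukocyte genes tested, 17 were lower in LGSC spheres (median -2.52, or -4.13 with 6 genes at their floor) and Cd14, the lipopolysaccharide co-receptor, was higher. The signalling adaptor Tyrobp was listed at 0 in the 3 LGSC libraries and at 83.2, 94.4 and 101 FPKM in E17.5 LG, and the macrophage complement gene C1qa was listed at 0 in the 3 LGSC libraries and at 45.6, 55.9 and 49.3 FPKM in E17.5 LG. Cd14 was at 116, 19.52 and 62.01 FPKM in LGSC spheres and 2.86, 3.37 and 3.26 FPKM in E17.5 LG (log2 fold change 3.68, adjusted p = 0.00328). The Cd14 values therefore went against the rest of the list, while the defining markers Tyrobp, C1qa, Csf1r, Adgre1 and Cx3cr1 were listed at 0 in the 3 LGSC libraries. All 9 erythroid genes tested were lower (median -2.39, or -4.88 at their floor), 6 of them listed at 0 in LGSC spheres, including the embryonic globins Hbb-y at 46.9, 49.01 and 12.4 FPKM and Hba-x at 17.9, 21.6 and 8.66 FPKM in E17.5 LG. Of 9 Schwann cell and neuron genes tested, 7 were lower, led by S100b (-4.63) and the neurofilament genes Nefm (-3.70) and Nefl, which was listed at 0 in the 3 LGSC libraries and at 26.05, 25.6 and 14.8 FPKM in E17.5 LG and at least 650-fold lower. The summed Schwann cell and neuron list was at 41.4, 163 and 11.1 FPKM in LGSC spheres and 119 to 157 FPKM in E17.5 LG, so that LGSC replicate 2 stood above every E17.5 library. Most of its sum was the tubulin gene Tubb3, at 2.49, 143 and 3.47 FPKM in LGSC spheres, which did not pass. Of 6 skeletal muscle genes tested, 4 were lower, and their levels in E17.5 LG were low, with embryonic myosin Myh3 at 5.79, 9.52 and 7.49 FPKM. In the adipocyte list Fabp4 (-4.28) and Pparg (-3.49) fell and Cebpa rose (1.06, a call lost without E17.5 replicate 1 or 2), and the summed list was at 105 to 216 FPKM in LGSC spheres and 145 to 151 FPKM in E17.5 LG.

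**Figure D3:**
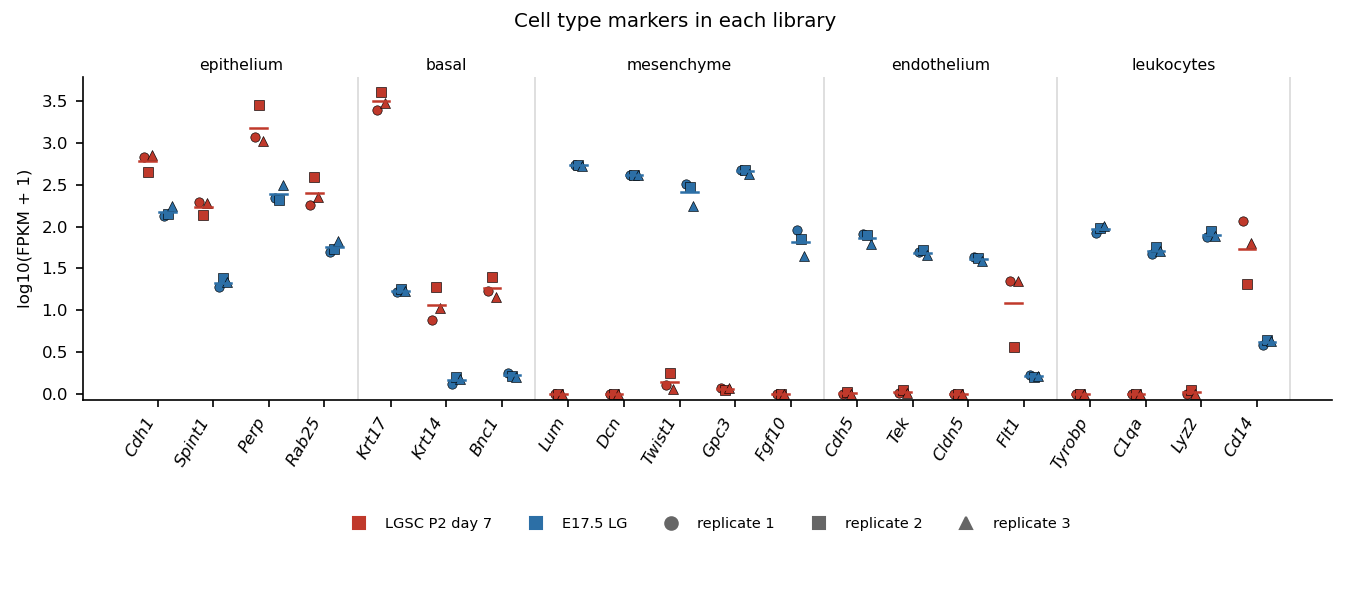
Log10(FPKM + 1) of cell type markers in each of the 6 libraries, red for LGSC spheres at day 7 and blue for E17.5 LG, with the replicate as the marker shape and a line at the mean of the 3 values. The epithelial and basal genes shown are higher in every LGSC library. The mesenchymal, endothelial and leukocyte genes shown lie at or near 0 there, except Flt1 and Cd14. The markers were picked from their lists, and Krt15, Ngfr, Krt18 and Cldn3, which did not pass, are not shown.

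Contractile genes of myoepithelium, which vessel wall and other smooth muscle share, were mostly lower in LGSC spheres (6 of 10 tested, with Tpm2 higher and a median of -1.15). The summed list was nonetheless at 1411 to 1737 FPKM in LGSC spheres and 1482 to 1787 FPKM in E17.5 LG, most of it the widely expressed actin Actg1, which did not pass. Acta2, smooth muscle actin, was at 13.3, 2.37 and 9.91 FPKM in LGSC spheres and 139, 156 and 296 FPKM in E17.5 LG (-4.54). Actg2 was at 0.0694, 0.246 and 0.287 FPKM in LGSC spheres and 33.5, 32.5 and 54.1 FPKM in E17.5 LG, and the myosin light chain gene Myl9 at 0.0929, 0.110 and 0.0961 FPKM in LGSC spheres and 101, 101 and 138 FPKM in E17.5 LG. None of the 11 tested genes of the acinar and secretory list passed the limma test, with 2 at an unadjusted p under 0.05, and none passed limma-voom on recovered reads. Without LGSC replicate 2, 2 were higher. Wfdc18 was spread over 624, 11.3 and 253 FPKM among the LGSC libraries alone. Aqp5, the water channel of acinar cells, was listed at 0 in all 6 libraries.

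Transcription factors of LG development went both ways in shares near those of all genes tested, so the split is not particular to them. Of 27 listed, 12 were tested, with 2 higher (16.7%, against 18.1% of all genes tested), 4 lower (33.3%, against 29.6%) and a median of -0.15. Alx4, a homeobox gene of the periocular mesenchyme, was at 0.0306, 0.0362 and 0 FPKM in LGSC spheres and 77.1, 72.2 and 58.97 FPKM in E17.5 LG (log2 fold change -6.10). Barx2, a homeobox gene needed for lacrimal bud growth, was at 19.04, 18.6 and 7.21 FPKM in LGSC spheres and 214, 248 and 256 FPKM in E17.5 LG (-4.02, adjusted p = 0.000259). The glandular epithelial factor Elf5 was at 0.735, 3.02 and 0.456 FPKM in LGSC spheres and 20.1, 20.9 and 33.1 FPKM in E17.5 LG (-3.53). Barx2 and Elf5 thus had lower levels in the spheres although these were richer in epithelial transcripts. Klf5, of proliferating basal epithelium, was at 41.5, 86.4 and 45.8 FPKM in LGSC spheres and 11.9, 12.1 and 15.5 FPKM in E17.5 LG (1.99), and Eya2, a transcriptional cofactor of eye and gland development, at 134, 69.2 and 89.7 FPKM in LGSC spheres and 32.1, 34.4 and 39.5 FPKM in E17.5 LG (1.39). Pax6, a regulator of eye and lacrimal gland development, had means of 6.43 and 3.95 FPKM and did not pass. Of 39 Hox genes only Hoxd8 reached the level for testing, at 0.0394, 0 and 0 FPKM in LGSC spheres and 3.56, 5.10 and 3.42 FPKM in E17.5 LG.

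The matrix genes fell with the mesenchyme, but the basement membrane did not fall as a whole. Of 25 tested genes of the fibrillar collagen and elastic fibre list, 24 were lower in LGSC spheres (median -5.01, or -6.29 with 6 genes at their floor) and the latent TGF beta binding protein Ltbp4 did not pass. Postn, a matricellular protein of mesenchyme, was at 0.757, 0.0441 and 0.141 FPKM in LGSC spheres and 541, 539 and 514 FPKM in E17.5 LG. Of 20 basement membrane genes tested, 7 were higher (35%) and 9 lower (45%), against 18.1% and 29.6% of all genes tested (median 0.11). Those that rose were the epithelial collagens Col18a1 (1.90), Col17a1 (1.53) and Col7a1 (0.56), the laminin receptors Itga6 (1.42), Itgb4 (0.57) and Itga3 (0.40), and dystroglycan Dag1 (0.57). Those that fell included Lama4 (-3.78), Lama1 (-2.32), Lamc3 (-1.96), the branching-associated matrix genes Frem2 (-4.65) and Fras1 (-1.34), and the network collagens Col4a1 and Col4a2. Col4a1 remained abundant in the spheres, at 159, 87.3 and 153 FPKM in LGSC spheres and 453, 438 and 486 FPKM in E17.5 LG (-1.83).

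Matrix proteases and their inhibitors were split, with 7 of 18 tested higher and 8 lower (median -0.48). The metalloproteinase inhibitor Timp1 was at 266, 94.2 and 214 FPKM in LGSC spheres and 24.3, 22.7 and 21.95 FPKM in E17.5 LG (2.88), and the urokinase receptor Plaur at 29.96, 53.1 and 67.2 FPKM in LGSC spheres and 7.02, 7.10 and 7.26 FPKM in E17.5 LG (2.58). The tissue plasminogen activator Plat was at 14.7, 15.8 and 22.99 FPKM in LGSC spheres and 71.4, 69.5 and 67.2 FPKM in E17.5 LG (-1.93). Adamts2, which processes fibrillar procollagen, fell by the largest amount (-5.00), and Mmp19 (-3.50) and Mmp3 (-2.46) fell too. Mmp10 was at 0.564, 7.95 and 3.63 FPKM in LGSC spheres and listed at 0 in E17.5 LG, with an adjusted p of 0.0339 that did not hold when LGSC replicate 3 or any E17.5 library was left out.

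Most of the fetal growth genes tested were lower in LGSC spheres, and those at or near 0 there could differ in no other direction. Most of the list is imprinted, that is, expressed from a single parental allele, and the rest belong to the insulin-like growth factor system. Of 23 tested, 21 were lower in LGSC spheres, none was higher, and the median was -4.13, or -5.53 with 7 genes at their floor. H19, a maternally expressed noncoding RNA, was at 0.0911, 0.377 and 0 FPKM in LGSC spheres and 2145, 2018 and 1617 FPKM in E17.5 LG (log2 fold change -10.71, SE 0.16). Its neighbour Igf2, insulin-like growth factor 2, was at 0.0377, 0.134 and 0.0585 FPKM in LGSC spheres and 716, 612 and 566 FPKM in E17.5 LG (-9.19, SE 0.11). Dlk1, a noncanonical Notch ligand of fetal tissues, was at 0.0382, 0.384 and 0 FPKM in LGSC spheres and 478, 390.3 and 304 FPKM in E17.5 LG (-8.42). Levels of the 3 genes in the spheres were under 1 FPKM in every library. Grb10, a growth-restraining adaptor, was at 0.0475, 0.549 and 0.0983 FPKM in LGSC spheres and 216, 209.9 and 180.2 FPKM in E17.5 LG, and Mest at 1.51, 4.73 and 1.08 FPKM in LGSC spheres and 249, 235 and 193 FPKM in E17.5 LG. Meg3 (-3.64), Rian (-2.96) and Mirg, the maternally expressed noncoding RNAs beside Dlk1, fell as well. Igfbp2 was at 2.69, 1431 and 1.57 FPKM in LGSC spheres and 310.4, 319.8 and 288 FPKM in E17.5 LG, with LGSC replicate 2 above every E17.5 library, and did not pass. The summed FPKM of the list was 25.2 and 30.8 in LGSC replicates 3 and 1 and 1503 in replicate 2, nearly all of it Igfbp2, against 4295 to 5288 in E17.5 LG.

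The same loci carry microRNA (miRNA) genes, whose mature sequences are given because they show which miRNAs the stretch encodes. Values for a miRNA gene are fragments over its hairpin in poly(A)-selected libraries, so they speak of the host transcript and not of the mature miRNA. Of 60 miRNA genes between Meg3 and 20 kb past Mirg on chromosome 12, 31 were tested and 21 of these were called lower in LGSC spheres, where 13.1% of all 343 miRNA genes tested were lower. The tested genes of the stretch passed the filter through E17.5 LG alone, so they could differ in no other direction and nothing is read from their count. All 60 were listed at 0 in each of the 3 LGSC libraries, and 35 had a value in E17.5 LG. None had a value in any of the 11 passage 2 LGSC libraries at any day. No hairpin of the stretch had more than 12 reads in a library, so single genes rest on few reads. Mir453, Mir493 and Mir541 were at 12.5, 15.2 and 15.2 FPKM, 13.9, 12.5 and 12.05 FPKM and 10.00, 11.5 and 12.5 FPKM in E17.5 LG. Mir483, which lies within Igf2, was listed at 0 in the 3 LGSC libraries and at 24.6, 22.7 and 30.8 FPKM in E17.5 LG (adjusted p = 3.6e-06). Mir483 too passed the filter through E17.5 LG alone and could only be lower. The mature sequences, from RefSeq (GRCm38.p6), are written 5′ to 3′ with the seed, bases 2 to 8, in capitals. All 21 genes that were lower matched an entry, with 40 mature sequences of 39 different seeds. The only shared seed was that of miR-453 and miR-496a-5p. The outermost lower genes of the stretch were Mir673 at chr12:109571990-109572080 and Mir3072 at chr12:109747878-109747960, both on the plus strand, and Mir483 lies at chr7:142654924-142654996 on the minus strand.
mmu-miR-453: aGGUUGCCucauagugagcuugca
mmu-miR-496a-5p: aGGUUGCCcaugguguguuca
mmu-miR-493-3p: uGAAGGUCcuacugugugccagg
mmu-miR-541-5p: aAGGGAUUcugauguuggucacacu
mmu-miR-154-3p: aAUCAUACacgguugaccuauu
mmu-miR-369-3p: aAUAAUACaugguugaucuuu
mmu-miR-483-5p: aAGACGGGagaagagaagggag
mmu-miR-483-3p: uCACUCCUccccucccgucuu

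In the other direction, Mir31 was at 90.7, 72.4 and 106 FPKM in LGSC spheres and 1.21, 0 and 0 FPKM in E17.5 LG (log2 fold change 6.11, SE 0.34, adjusted p = 4.18e-05). Only 1 of the 3 E17.5 libraries held a value, and the LGSC libraries did not overlap with it. Mir31 passed the filter through LGSC spheres alone, so it could only be higher. Its hairpin lies at chr4:88910557-88910662 on the minus strand (RefSeq, GRCm38.p6), on the same stretch of chromosome 4 as the cell cycle inhibitors Cdkn2a and Cdkn2b. Of 11 annotated genes from Mir31 to Cdkn2b, 5 were tested and 4 were higher in LGSC spheres: Mir31, the methylthioadenosine phosphorylase gene Mtap (1.57), Cdkn2a and Cdkn2b. The fifth, a small nucleolar RNA gene, had a log2 fold change of 0.85 and did not pass (adjusted p = 0.282). Of all genes tested, 18.1% were higher. The ends of the stretch were set at Mir31 and Cdkn2b with their rises known, so nothing is read from its count. The mature products of Mir31 are as follows.
mmu-miR-31-5p: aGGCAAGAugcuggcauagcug
mmu-miR-31-3p: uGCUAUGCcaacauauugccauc

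Genes of the cell cycle were lower in LGSC spheres by small amounts. Of 33 S phase genes tested, 28 were lower and none was higher (median -0.99), and of 35 G2/M genes tested 26 were lower and 1, the tubulin gene Tubb4b, was higher, a call lost when any E17.5 library was left out (median -0.85). The replication clamp Pcna was at 162, 201 and 147 FPKM in LGSC spheres and 368, 377 and 406 FPKM in E17.5 LG (log2 fold change -1.18, SE 0.13). Mcm5, of the replicative helicase, was at 49.9, 89.6 and 44.9 FPKM in LGSC spheres and 124, 136 and 128 FPKM in E17.5 LG (-1.13). Cyclin B2, Ccnb2, was at 52.3, 81.5 and 48.3 FPKM in LGSC spheres and 143, 151 and 143 FPKM in E17.5 LG (-1.29). In each the LGSC libraries stood below every E17.5 library, with replicate 2 the highest of the LGSC libraries, and the spheres still held transcripts of dividing cells. The largest falls of the lists were those of the histone chaperone Nasp (-2.30), the replication protein Rpa2 (-1.91), the histone mRNA binder Slbp (-1.82), the primase Prim1 (-1.69), and in G2/M the spindle genes Nusap1 (-1.87), Kif2c (-1.80), Pimreg (-1.60) and Cenpf (-1.60). The ubiquitin ligase gene Ube2c (76.9 and 95.7 FPKM), Cdc20 (141 and 156 FPKM) and Plk1 (54.9 and 90.99 FPKM, means of LGSC and E17.5) did not pass. The summed S phase list was 487 to 820 FPKM in LGSC spheres and 1260 to 1338 FPKM in E17.5 LG.

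Cell cycle inhibitors moved further and in the other direction in part. Of 20 tested genes of the inhibitor and senescence list, 9 were higher and 6 lower (median 0.49). Cdkn2b, encoding p15, was at 261, 222 and 302 FPKM in LGSC spheres and 1.48, 1.34 and 1.26 FPKM in E17.5 LG (log2 fold change 6.79, SE 0.13, adjusted p = 9.87e-07). Cdkn2a, which encodes p16 and p19Arf, was at 69.4, 60.4 and 74.2 FPKM in LGSC spheres and 0.110, 0.354 and 0.533 FPKM in E17.5 LG (5.70, SE 0.16). Both were even across the LGSC libraries, replicate 2 included. In the 8 LGSC libraries of the other culture days Cdkn2b was at 227 to 465 FPKM and Cdkn2a at 49.3 to 110.2 FPKM, while adult LG had at most 5.89 and 0.269 FPKM. Of the members that rose, some are known targets of p53. Ccng1 was at 354, 369.8 and 464 FPKM in LGSC spheres and 49.6, 51.8 and 51.1 FPKM in E17.5 LG (2.93), Zmat3 was at 36.8, 41.4 and 39.9 FPKM in LGSC spheres and 4.02, 4.24 and 4.36 FPKM in E17.5 LG (2.95), Mdm2 had a log2 fold change of 1.76, Sesn2 of 1.68 and Cdkn1a of 1.90. Trp53 itself had means of 134 and 111 FPKM and did not pass. Those that fell were the imprinted inhibitor Cdkn1c, listed at 0 in LGSC spheres, Cdkn2c (-1.70), the stress genes Gadd45b (-1.97) and Gadd45g (-1.85), Rbl2 (-0.28) and the cyclin gene Ccnd3 (-0.88).

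**Figure D4:**
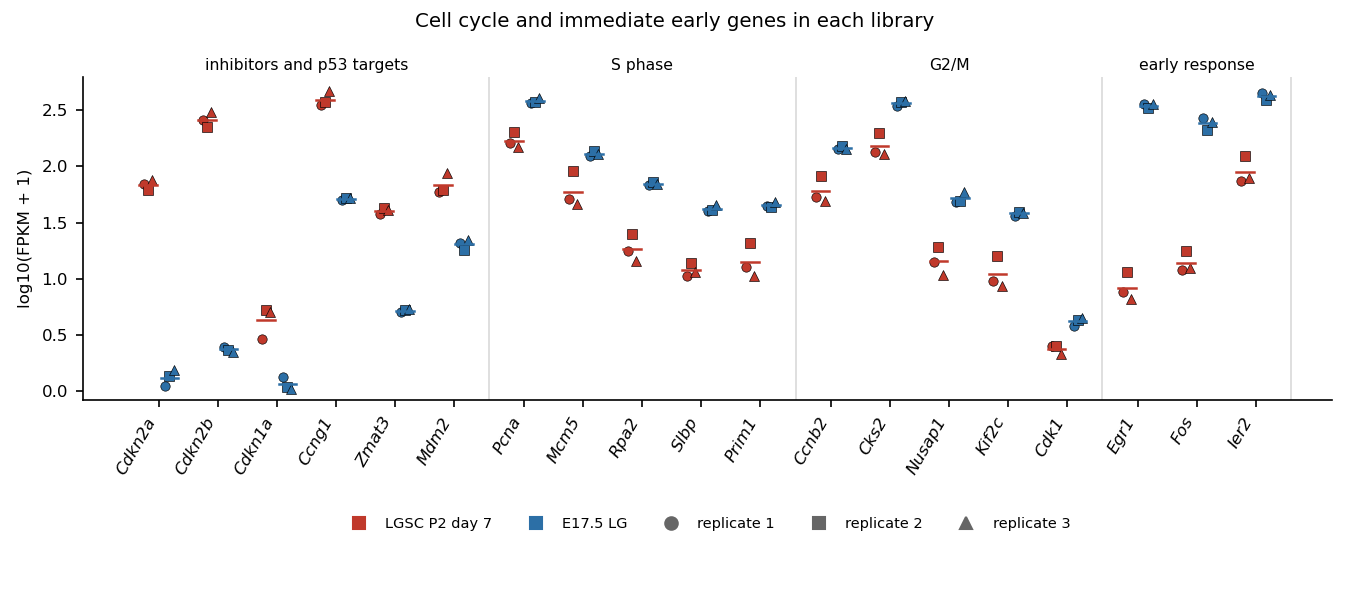
Log10(FPKM + 1) of cell cycle inhibitors and p53 target genes, S phase genes, G2/M genes and immediate early genes in each of the 6 libraries, red for LGSC spheres at day 7 and blue for E17.5 LG, with the replicate as the marker shape and a line at the mean of the 3 values. The first 6 genes are higher in every LGSC library, and all others shown are lower, by small steps for the cell cycle genes and by larger ones for Egr1 and Fos.

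The ligand genes Fgf10 and Fgf7 were at or near 0 in the spheres, whose medium contained FGF10. Any part of the medium in the values below was not tested. In the FGF list 12 of 18 tested genes were lower and 2 higher (median -1.65). Of these, Fgf10, Fgf7 and Spry4 passed the filter through E17.5 LG alone and could only be lower. Fgf10, the bud-inducing ligand, was listed at 0 in the 3 LGSC libraries and at 90.7, 69.8 and 42.9 FPKM in E17.5 LG, at least 2710-fold lower in LGSC spheres. Fgf7, which signals through the same epithelial receptor isoform, was at 0.0333, 0 and 0.0344 FPKM in LGSC spheres and 13.9, 13.4 and 9.77 FPKM in E17.5 LG (-3.69). Genes induced by FGF signalling were also lower: the feedback inhibitor Spry4 was at 0.165, 0.112 and 0.170 FPKM in LGSC spheres and 23.1, 22.3 and 22.6 FPKM in E17.5 LG, Spry2 was at 23.1, 22.6 and 18.2 FPKM in LGSC spheres and 122, 115 and 127 FPKM in E17.5 LG, the phosphatase Dusp6 was at 36.3, 31.8 and 23.03 FPKM in LGSC spheres and 166, 171 and 195 FPKM in E17.5 LG and the transcription factor Etv5 was at 62.9, 36.7 and 53.7 FPKM in LGSC spheres and 182, 195 and 185 FPKM in E17.5 LG. The levels of Spry2, Dusp6 and Etv5 in the spheres were lower by log2 fold changes of -2.46, -2.53 and -1.89. Fgf22 (0.74) and Spred3 (0.66) rose at low levels.

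Of the EGF receptor ligands, Ereg, Tgfa, Btc and Hbegf were higher in LGSC spheres. Of 11 tested genes of the EGF list, 7 were higher and 3 lower (median 0.71). Tgfa was at 16.7, 30.9 and 24.4 FPKM in LGSC spheres and 4.57, 6.31 and 5.35 FPKM in E17.5 LG (1.93), and Btc, betacellulin, at 6.88, 6.03 and 7.83 FPKM in LGSC spheres and 0.938, 1.06 and 1.96 FPKM in E17.5 LG (1.79). Ereg, epiregulin, was at 6.70, 35.5 and 3.73 FPKM in LGSC spheres, with replicate 2 highest, and at most 0.0606 FPKM in E17.5 LG (3.43, adjusted p = 0.00941). Hbegf rose as well (1.42), as did the AP-1 gene Fosl1 (3.37). The ligand Areg and the receptor gene Erbb3 were listed at 0 in all 6 libraries, and Egfr, Erbb2 and Egf were too low to test. The members that fell were Egr1, at 6.60, 10.4 and 5.63 FPKM in LGSC spheres and 357, 329 and 358 FPKM in E17.5 LG, and the feedback genes Errfi1 (-1.01) and Phlda1 (-0.85).

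In the Wnt list 15 of 29 tested genes were lower and 3 higher (median -1.23). The secreted antagonist Sfrp2 was at 0.0502, 0.119 and 0 FPKM in LGSC spheres and 362, 331 and 219 FPKM in E17.5 LG (-8.14), Sfrp1 was at 43.3, 17.2 and 17.7 FPKM in LGSC spheres and 349.7, 365 and 440.3 FPKM in E17.5 LG (-3.96), and the ligand gene Wnt2b was at 0.283, 0.426 and 0.585 FPKM in LGSC spheres and 26.3, 21.5 and 18.1 FPKM in E17.5 LG (-3.99). Dkk2 fell (-4.23), as did the stem cell receptor Lgr5 (-1.23, with means of 0.411 and 2.34 FPKM). In contrast, the epithelial ligand genes Wnt10a and Wnt4 were higher, Wnt10a at 40.5, 185 and 25.7 FPKM in LGSC spheres and 1.87, 1.98 and 2.48 FPKM in E17.5 LG (4.25, and 3.42 without replicate 2) and Wnt4 at 55.03, 91.3 and 32.3 FPKM in LGSC spheres and 12.3, 15.02 and 15.5 FPKM in E17.5 LG (1.87). The receptor gene Fzd8 was the third that rose (1.10). The Wnt target Axin2 had means of 0.254 and 0.407 FPKM, too low to test.

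Other developmental pathways were lower on balance by count, as were all genes tested (18.1% higher and 29.6% lower). The shares higher and lower were 16.7% and 58.3% for the Notch list and 0% and 62.5% for the Hedgehog list. For the BMP and TGF beta list they were 19% and 42.9%. In the Notch list 7 of 12 tested genes were lower and 2 higher (median -1.34), with the endothelial receptor Notch4 at 0.295, 0.190 and 0.610 FPKM in LGSC spheres and 7.45, 6.18 and 5.57 FPKM in E17.5 LG (-2.44), and the fringe gene Mfng (-2.56) and the target Heyl also among those that fell. The ligand Jag1 was higher, at 3.003, 2.61 and 3.20 FPKM in LGSC spheres and 0.375, 0.214 and 0.257 FPKM in E17.5 LG (1.62). The feedback gene Nrarp rose too (1.18, adjusted p = 0.0419), a call lost when LGSC replicate 3 or any E17.5 library was left out. In the Hedgehog list 5 of 8 were lower and none higher (median -1.76), led by Gli2 (-3.45, a call lost when E17.5 replicate 1 or 2 was left out) and the co-receptors Cdon (-3.22) and Gas1 (-2.42). In the BMP and TGF beta list 9 of 21 were lower and 4 higher (median -0.39). Tgfb1 was at 72.5, 62.1 and 75.6 FPKM in LGSC spheres and 24.2, 24.3 and 24.5 FPKM in E17.5 LG (1.48, adjusted p = 8.2e-05), and the BMP antagonists Grem1 (-2.03) and Chrdl1 (-2.31) and the ligands Bmp4 (-1.49) and Bmp5 (-2.15) fell.

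Inflammatory and stress genes of cultured epithelium were higher in part. Of 15 cytokine and chemokine genes tested, 6 were higher and 3 lower (median 0.42). Cxcl5 was at 380.4, 46.2 and 169 FPKM in LGSC spheres and 0.621, 0.390 and 0.268 FPKM in E17.5 LG (6.68). The interleukin 1 receptor antagonist Il1rn was at 46.4, 10.8 and 30.7 FPKM in LGSC spheres and 0.0232, 0.0375 and 0.0452 FPKM in E17.5 LG (4.65), and Il1a at 7.61, 26.7 and 20.6 FPKM in LGSC spheres and 0.195, 0.210 and 0.0633 FPKM in E17.5 LG (3.90). The chemokines Ccl7 (-2.71), Cxcl10 (-2.14) and Cxcl14 (-1.98) fell. In the keratinocyte and cornified envelope list 12 of 30 genes were listed at 0 in all 6 libraries. Of 11 tested, Cdsn (3.05, a call lost without E17.5 replicate 3) and S100a14 (1.84) were higher and none was lower, and the summed list was 13.1, 17.03 and 599 FPKM in LGSC spheres in rising order, the last in replicate 2.

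Metabolic lists held smaller changes. In the oxidative stress and iron list 13 of 21 tested genes were higher and 3 lower (median 0.97), with 7 higher when either E17.5 replicate 2 or 3 was left out. The NRF2 target Srxn1 was at 65.6, 119 and 82.2 FPKM in LGSC spheres and 11.1, 13.03 and 14.7 FPKM in E17.5 LG (2.65), Nqo1 was at 60.4, 208 and 64.8 FPKM in LGSC spheres and 18.8, 19.8 and 17.6 FPKM in E17.5 LG (2.26) and the glutathione transferase gene Gsta4 was at 502, 2607 and 541 FPKM in LGSC spheres and 172, 194 and 181 FPKM in E17.5 LG (2.28, a call lost when any E17.5 library was left out). LGSC replicate 2 was the highest for each. In the cholesterol list 7 of 20 were higher and 1 lower (median 0.58). Of 19 amino acid and unfolded protein stress genes 6 were higher, among them Chac1 (2.96), Trib3 (2.45) and Asns (1.51), and 4 were lower, including the chaperone Hspa5 (-0.60) (median 0.06). Glycolysis and hypoxia genes went both ways, 6 higher (26.1%) and 8 lower (34.8%) of 23 (median -0.02). Of all genes tested, 18.1% were higher and 29.6% lower. The neuronal enolase Eno2 (-3.55) and the glucose transporter Slc2a3 (-1.76) were lower and Ndrg1 (1.27) was higher.

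Housekeeping, mitochondrially encoded and immediate early genes were examined as measures of scaling and RNA quality. Of 12 housekeeping genes tested 2 were higher (16.7%) and 3 lower (25%), with a median of -0.06. These shares were near those of all genes tested (18.1% and 29.6%). The rises, of B2m and Ywhaz, did not hold when any E17.5 library was left out. Actb had means of 529.5 and 453 FPKM and did not pass. Of 9 mitochondrially encoded genes tested 7 were lower (median -0.75), or 4 without LGSC replicate 3 and 3 without E17.5 replicate 1. Of 9 immediate early genes 5 were lower and none higher (median -1.53). Egr1 fell by 5.39 on the log2 scale, and Fos was at 11.1, 16.7 and 11.5 FPKM in LGSC spheres and 269.6, 211 and 249 FPKM in E17.5 LG (-4.13). In adult LG Egr1 was at 72.1 to 217 FPKM, and in the LGSC libraries of other days at 2.19 to 21.7 FPKM. Immediate early genes respond within minutes to handling of tissue as well as to growth factors, and the part of either in these values was not tested.

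**Figure D5:**
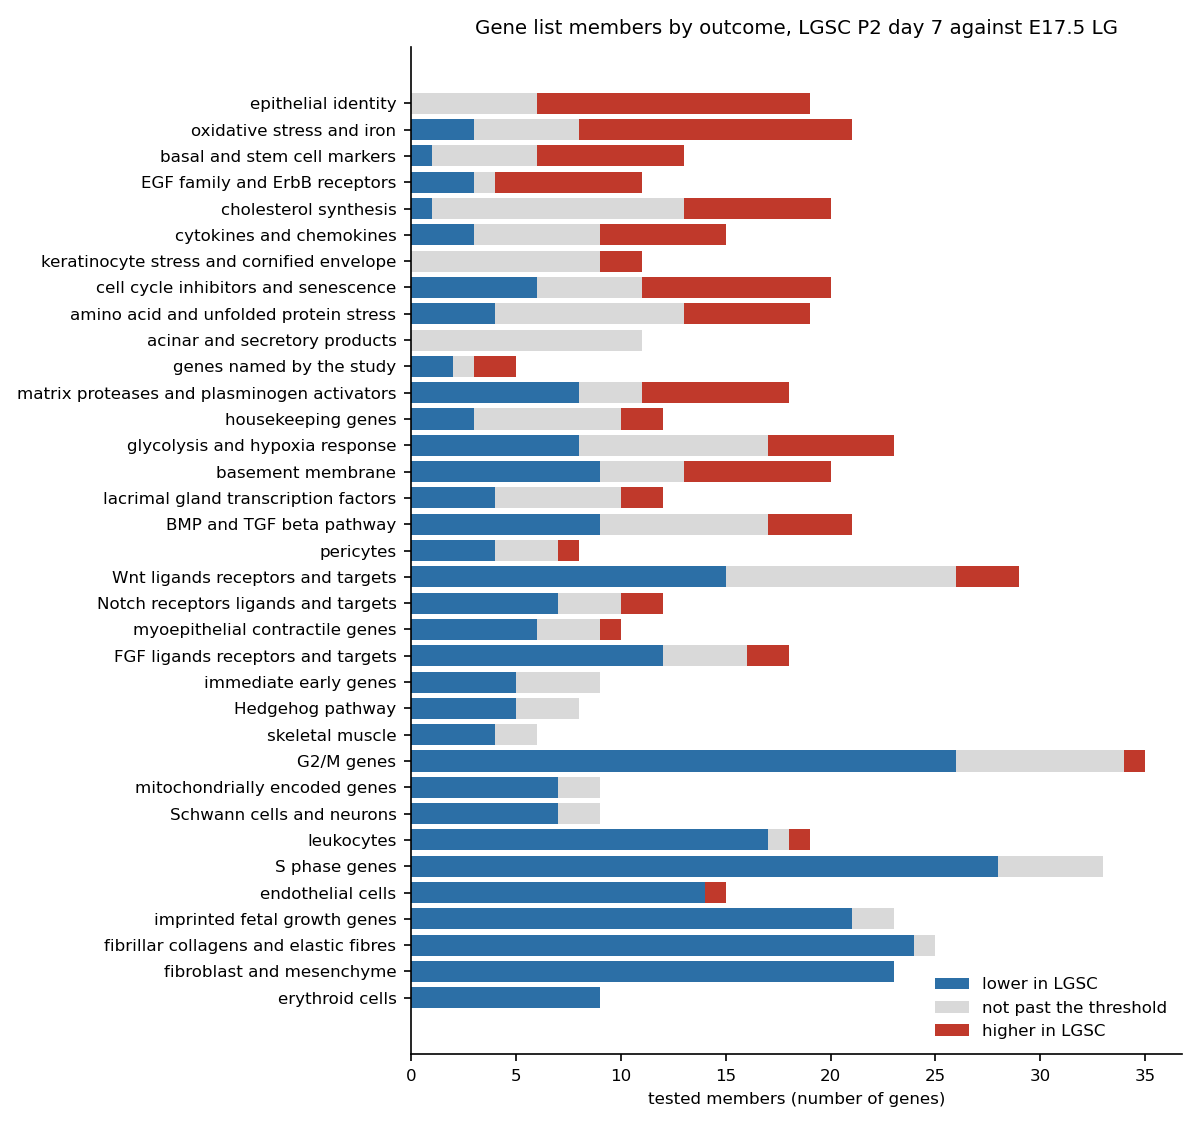
Number of tested members of each gene list with at least 5 tested genes that were lower in LGSC spheres (blue), did not pass the adjusted p of 0.05 (grey) or were higher in LGSC spheres (red). All tested erythroid and mesenchymal genes are in blue, none of the tested acinar genes passed, and epithelial, oxidative stress, basal and EGF genes have the largest red shares.

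The other libraries of the study give the levels of some of these genes elsewhere. Krt17 was at 32.9 to 46.6 FPKM in E19.5 LG, 37.7 to 111 FPKM in adult LG and 1580.2 to 5799.9 FPKM in the 8 passage 2 LGSC libraries of other days. Anxa8 was at no more than 21.3 FPKM in adult LG, and at 316 to 915 FPKM in those LGSC libraries. Both genes were high in every LGSC library and low in every tissue library. H19 was at 2066 to 2395 FPKM in E19.5 LG and 0.532 to 2.32 FPKM in adult LG. Agtr2 was at 435 to 527 FPKM in E19.5 LG and at most 0.434 FPKM in adult LG. For H19 and Agtr2 the LGSC spheres lay near adult LG and far from the embryo. Other genes low in the spheres were higher in adult LG than in any day 7 LGSC library. Among these, Col3a1 was at 41.6 to 65.3 FPKM in adult LG, Alx4 at 1.64 to 7.91 FPKM and Cpa3 at 2.19 to 9.85 FPKM. Barx2 was at 55.6 to 159 FPKM in adult LG, above the 4.85 to 45.6 FPKM of the other LGSC libraries. Ccnb2 was at 5.74 to 6.18 FPKM in adult LG, so that the day 7 spheres, at 52.3, 81.5 and 48.3 FPKM, lay between adult and embryonic gland. These values are a description and were not tested.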

How the data were processed

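The authors sequenced poly(A)-selected RNA and deposited 1 table of FPKM values per library, with no read counts. Per the submitters' processing notes the tools were CASAVA 1.8, HISAT2 2.0.5 and featureCounts 1.5.0-p3. The notes name the genome NCBIM37. Gene symbols, types, lengths and positions were added here from the GENCODE M21 annotation by Ensembl identifier, and the recovered reads rest on its gene lengths. Of the 24 samples, 21 had tables used here, and the day 5 replicate 3, passage 6 and passage 20 samples were not analysed here. The passage 10 table lists other genes and was compared by value only. Values that are multiples of 1 read gave whole reads for 93.4% to 93.5% of genes (within 0.01), and these recovered reads gave the depth. The precision they give covers counting error only.

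Genes averaging 0.5 FPKM or more across the 6 libraries were tested with limma 3.58.1 in R 4.3.3 on log2(FPKM + 1), with no covariate, moderated variance and Benjamini-Hochberg adjustment over all genes tested, and called at an adjusted p under 0.05. With 3 libraries a group an exact permutation test cannot go below 0.10, so summed marker levels were not tested. Tested on simulated counts over the 13661 tested genes whose reads could be recovered in all 6 libraries, the same limma fit called 44.0% of genes changed by 1 log2 unit and 76.0% of those changed by 2, and 100.0% of both among genes of at least 10 FPKM, with 5.5% of 127 calls false. The simulation changed 100 genes by each amount and gave every gene the same spread beyond counting error (dispersion 0.0084). It held no library like LGSC replicate 2. Its shares therefore do not give the power or the false calls of the comparison itself, where genes such as Krt18 and Igfbp2 were abundant and did not pass. Alternatives were other pseudocounts, filters, scalings, a replicate block, limma-voom on recovered reads, a test against a log2 fold change of 1, a fit of 20 libraries, and leaving out each library.

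The members and gene lists were chosen with earlier results of these data known. Named genes were the 10 largest rises and falls with a symbol, at least 1 FPKM on average in the higher group and no overlap, up to 4 called members of each list per direction, the genes named by the study, and the most abundant and the unmeasured members of cell type lists. Other genes were named after their values were seen, among them those that set LGSC replicate 2 apart, the miRNA genes, Mtap, and list members given beside these. Summaries used pandas 2.3.3 and numpy 2.4.6 under Python 3.11.15, and plots matplotlib 3.10.9. A few list members that the naming rule selects are not reported here.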

Additional observations from a re-analysis of the deposited data

Results flagged for a closer look

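The passage 10 table, which the comparison did not use, held high values for genes at or near 0 in the 6 libraries. In that table, of 1 library, Epcam was at 261 FPKM, Krt8 at 414 FPKM, Sox9 at 51.8 FPKM and Mki67 at 19.505 FPKM, and all 4 were listed at 0 in the 20 other libraries. Krt14 was at 7065 FPKM and Krt5 at 4931 FPKM there, against at most 17.8 FPKM and 2.16 FPKM in the day 7 passage 2 libraries. Of genes with at least 10 FPKM at passage 10, 10.8% were at 0 in all 20 other libraries. Passage and the making of the table differ together and cannot be told apart.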

How the results depend on the processing

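The count of genes past the threshold, 8286 of 17391 tested, was 5033 of 8972 with a mean of at least 2 FPKM. It was 4408 of 8939 where each library had to hold 10 recovered reads or more, which removes genes at 0 in a group. Against a log2 fold change of 1 it was 1816 of 17391. Filters changed the number of genes tested, so a lower count is not a lower share. The count stayed within 1.5 times under the other alternatives, at 6082 (of 13661 tested) to 9779 (of 37605 tested). These include 7190 of 13126 with a mean of at least 10 recovered reads, an alternative chosen after seeing the data. Leaving out 1 library gave 6523 to 9116. Members of the gene lists past the threshold numbered 398, against 241 under that read minimum, 201 against a log2 fold change of 1, and 346 to 448 with 1 library left out. With a replicate block 7366 genes and 377 list members passed. Deviations of same-numbered libraries correlated at 0.0353, 0.0332 and 0.0203, so the numbers were not taken to pair the samples, although each library correlated best with its own number. Without LGSC replicate 2 the log2 fold change turned for 6 genes, none of which had passed. With 1 library left out in turn the log2 fold change ranged from -1.85 to 0.98 for Wfdc18, from -0.48 to 0.72 for Prom2, from -0.01 to 2.68 for Tubb3, from -1.10 to 3.33 for Krt1, from -1.47 to 2.42 for Krtdap and from -0.76 to 0.86 for Cldn3. Cldn3 was also at 0.02 when scaled to recovered reads and with limma-voom, and at 0.28 with limma-voom and the block, where Wfdc18 was at 0.15. The cause was not tested. Depth limits genes with few reads, miRNA genes above all.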

Other observations

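Trophoblast and proliferin genes were measured in part: of 14 listed, 4 were tested, with Prl2c3 and Prl2c2 higher in LGSC spheres and Elf5 and Ascl2 lower. The Ascl2 call was lost when any library but LGSC replicate 2 was left out.

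Sex-linked transcripts differed among the LGSC libraries. Xist, the RNA that coats the inactive X chromosome, was at 0.0121, 95.6 and 104 FPKM in day 7 LGSC replicates 1, 2 and 3, and the Y-linked gene Eif2s3y at 2.31, 0 and 0 FPKM. Replicate 1 had the same pattern at days 5, 10 and 14. All 3 E17.5 libraries held both, with Xist at 77.2, 48.6 and 69.4 FPKM and Eif2s3y at 0.154, 0.399 and 0.180 FPKM.

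Keratinocyte genes were also high in replicate 2 of the other culture days, and not there alone. The summed keratinocyte and cornified envelope list was at 213 FPKM in day 5, 2379.8 FPKM in day 10 and 1298 FPKM in day 14 replicate 2, and at 14.5 to 16.1 FPKM in replicate 1 of those days. Replicate 3 was at 16.4 FPKM on day 10 and 197.5 FPKM on day 14.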
